A study of Mus musculus with 6 samples.

Results

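The data described here are the transcript events of 8 mouse genes for synaptic adhesion proteins. These were the neurexins Nrxn2 and Nrxn3, the neuroligins Nlgn1, Nlgn2 and Nlgn3, and the latrophilins Adgrl1, Adgrl2 and Adgrl3. The members were all entries of the per-library event lists that carry the GENCODE M21 identifier of 1 of these genes, which gave 185 distinct events of 132823, in 8 of the 16154 genes listed. The series holds 6 RNA-seq libraries of the nucleus accumbens (NAc), part of the ventral striatum and of the reward circuit, from C57BL/6N mice, described as adult males. In the saline group (3 libraries), mice received saline injections, and in the morphine group (3 libraries), mice received morphine injections, both within conditioned place preference (CPP) training, a procedure that pairs a compartment of a box with the injection. The labels name no transgene or mutation, mice of both groups were trained, and NAc tissue was taken shortly after the preference test. The series description names 6 mice per group. A figure text of the study describes the libraries of a group as NAc tissue from 3 mice, that is, 1 animal for each. Whether animals were pooled was not resolved, so p-values measure the spread between libraries, which may be partly technical.

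Neurexins are presynaptic membrane proteins with long α forms and short β forms that start from an internal promoter, and alternative exons inserted at fixed splice sites alter which postsynaptic partners they bind. Neuroligins are postsynaptic neurexin ligands whose own inserts, at the sites called A and B, affect that binding. Latrophilins are adhesion G protein-coupled receptors that bind teneurins and FLRT proteins across the synapse. All 3 families are known for their role in forming and specifying synapses, including those on striatal projection neurons.

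Each list names events of the assembled transcripts of 1 library. At splicing events the transcripts differ from each other. These are a skipped exon (forms with and without the exon were both assembled), a retained intron, or an exon with alternative ends. Transcript starts and ends are also listed, and need no alternative. Nrxn2, for example, had 1 transcript end, listed in all 6 libraries, and the partner gene Cbln1 had 2 events in every library with 0 splicing events. A listed event has no level. Absence of a splicing event from a list says only that both forms were not assembled in that library, not that a form was absent from the tissue. Absence of a start or end says only that it was not assembled. In bulk tissue, fewer cells of a type and less RNA per cell cannot be told apart. Relative depth was 1, 1.07 and 1.37 in saline 1, 2 and 3 and 1.2, 1.59 and 1.29 in morphine 1, 2 and 3, where saline 1 was set to 1. All 10 markers of striatal projection neurons were listed in every library, as were all markers of cortex, glia and ventricle lining that were looked up. Since every marker was listed everywhere, listing gives no information on cell content.

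The sequences below show a selection of the alternative exons of the neurexins and neuroligins that were listed in all 6 libraries, chosen for inserts at known sites or with a counterpart in a paralog. They were read from GENCODE M21 transcripts on GRCm38. Capitals mark the alternative bases, and the lower-case letters are the 15 adjoining bases of the upstream and the downstream exon. The first is the 90-nt insert of Nrxn3 known as SS4 (chr12:90199147-90199236, plus strand).
Nrxn3 SS4: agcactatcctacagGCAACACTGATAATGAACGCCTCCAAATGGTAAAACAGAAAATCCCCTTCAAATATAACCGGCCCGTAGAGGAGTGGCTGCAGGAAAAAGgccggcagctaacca
Next is a pair of upstream exons of 27 nt in both neurexins (chr19:6488784-6488810 and chr12:89354453-89354479, both plus strand), with 13 shared bases (48.1%), followed by a second 27-nt exon that was listed for Nrxn3 (chr12:89517906-89517932, plus strand).
Nrxn2 27 nt: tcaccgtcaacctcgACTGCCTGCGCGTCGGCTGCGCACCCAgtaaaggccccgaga
Nrxn3 27 nt, upstream: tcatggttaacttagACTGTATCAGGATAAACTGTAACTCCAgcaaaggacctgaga
Nrxn3 27 nt, downstream: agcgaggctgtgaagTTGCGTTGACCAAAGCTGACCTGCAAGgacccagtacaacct
The neuroligin inserts lie at site A (chr3:25920178-25920237, minus strand; chr11:69830563-69830613, minus strand; chrX:101303072-101303131 and chrX:101307075-101307134, plus strand). The Nlgn1 exon and the downstream Nlgn3 exon share 43 of 60 bases (71.7%), whereas the 2 Nlgn3 exons share 19 of 60 (31.7%).
Nlgn1 site A: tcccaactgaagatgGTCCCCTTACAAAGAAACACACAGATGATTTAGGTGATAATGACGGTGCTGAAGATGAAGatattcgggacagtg
Nlgn2 site A: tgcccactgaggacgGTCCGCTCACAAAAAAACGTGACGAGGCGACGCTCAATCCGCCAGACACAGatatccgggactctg
Nlgn3 site A, upstream exon: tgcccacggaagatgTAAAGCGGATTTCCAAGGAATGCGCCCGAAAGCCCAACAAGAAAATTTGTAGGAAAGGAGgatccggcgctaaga
Nlgn3 site A, downstream exon: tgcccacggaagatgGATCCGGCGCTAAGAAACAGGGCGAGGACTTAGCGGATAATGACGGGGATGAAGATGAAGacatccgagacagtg
The last sequence shows the insert known as site B of Nlgn1, where the donor of a coding exon (chr3:25439865-25440077, minus strand) lay 27 nt apart in the 2 forms. Here the lower-case letters before the insert are the end of the shared part of the exon.
Nlgn1 site B: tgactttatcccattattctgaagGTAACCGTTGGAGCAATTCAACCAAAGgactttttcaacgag

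Nrxn2 (ENSMUSG00000033768, chr19:6418731-6544169, plus strand) had several inserts that were listed in all libraries of both groups. It held 19 distinct events, 12 of them listed in all 6 libraries. The number of events was 14 in each saline library and 14, 17 and 13 in morphine 1, 2 and 3. The morphine libraries lay on both sides of the saline value, and the exact permutation test gave p = 1. The exons of 30 nt (chr19:6448255-6448284), 72 nt (chr19:6450528-6450599) and 27 nt were each listed as skipped in all 6 libraries, and the 27-nt exon was also listed with differing flanking exons in all 6. At chr19:6463824-6463868, a coding exon was listed as 24 nt and as 45 nt, each also skipped whole, in all 6 libraries, so the insert was absent, short or long in every library. Skipping of the 30-nt and 72-nt exons together was listed in saline 1, 2 and 3 and in morphine 2.

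Nrxn3 (ENSMUSG00000066392, chr12:88722876-90334935, plus strand) spans 1612 kb, and 1 saline library had more of its events than any other library. Saline 1, 2 and 3 had 21, 12 and 12 events, and morphine 1, 2 and 3 had 18, 17 and 14. All morphine values lay between the highest and the lowest saline values (exact p = 0.8). Of its 39 distinct events, 26 were listed in 1 library only and 9 in all 6. The 27-nt exons and the 90-nt SS4 exon were listed as skipped in every library. Near the 3′ end, an exon of 706 nt (chr12:90321936-90322641), of which 107 bases are coding, was listed as skipped with differing flanking exons in all 6. A non-coding exon of 101 nt (chr12:88954811-88954911) was skipped in all libraries except saline 2. Each of its 4 retained introns was listed in 1 library, 2 of them in saline 1, 1 in morphine 1 and 1 in morphine 2.

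Both neurexins had α and β starts that were listed in every library. For Nrxn2, starts at chr19:6418972 and, for the β form, at chr19:6498531 were listed in all 6 libraries, as was an end at chr19:6531844. A further Nrxn2 start at chr19:6428778 was listed in all libraries except morphine 1. Positions of starts and ends are those of the splice-site side of the first or last exon. For Nrxn3, starts at chr12:88723186, chr12:88795893, chr12:88953616, chr12:89193207 and, for the β form, chr12:89813640 were listed in all 6. By contrast, no end of Nrxn3 was listed in all 6 libraries. None of the 6 listed ends fell on an annotated exon boundary, and 2 of the 6 lay on the opposite strand.

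Nlgn1 (ENSMUSG00000063887, chr3:25426215-26332460, minus strand), the neuroligin of excitatory synapses, had 10, 10 and 6 events in saline 1, 2 and 3 and 8, 8 and 10 in morphine 1, 2 and 3. The group means were equal, at 8.67 ± 2.31 and 8.67 ± 1.15 (SD, n = 3; exact permutation p = 1). The 60-nt site A exon and the 27-nt site B insert were listed in all 6 libraries. A second skipped exon of 60 nt (chr3:26132744-26132803), which is not in the annotation, was listed between the same flanking exons in saline 1, saline 2, morphine 1 and morphine 3. In saline 2 both 60-nt exons were also listed as skipped together. Starts at chr3:26153265 and chr3:26331004 were listed in all 6, whereas 12 of 13 transcript ends were in 1 library only. Of the 13 ends, 3 lay on the opposite strand.

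Nlgn2 (ENSMUSG00000051790, chr11:69823122-69837784, minus strand), the neuroligin of inhibitory synapses, had the fewest events of the 8 genes. Every library had 3 events apart from saline 2, which had 7 (exact p = 1). The shared splicing event was the 51-nt site A exon, skipped in all 6 libraries, together with a start at chr11:69837048. Even with 8 distinct events, starts and ends included, Nlgn2 lay above 67.7% of all genes, whose median was 5 distinct events per gene.

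Nlgn3 (ENSMUSG00000031302, chrX:101299168-101325963, plus strand), which is found at excitatory and inhibitory synapses, had 5, 5 and 7 events in saline 1, 2 and 3 and 5 in each morphine library (exact p = 1). The upstream and downstream 60-nt exons were each listed as skipped, and were listed as skipped together, in all 6 libraries. No neuroligin had an event that separated the groups. The sense start and end of Nlgn3 were listed in all libraries except saline 2, in which a start and an end on the opposite strand carried the gene's identifier.

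**Figure D1:**
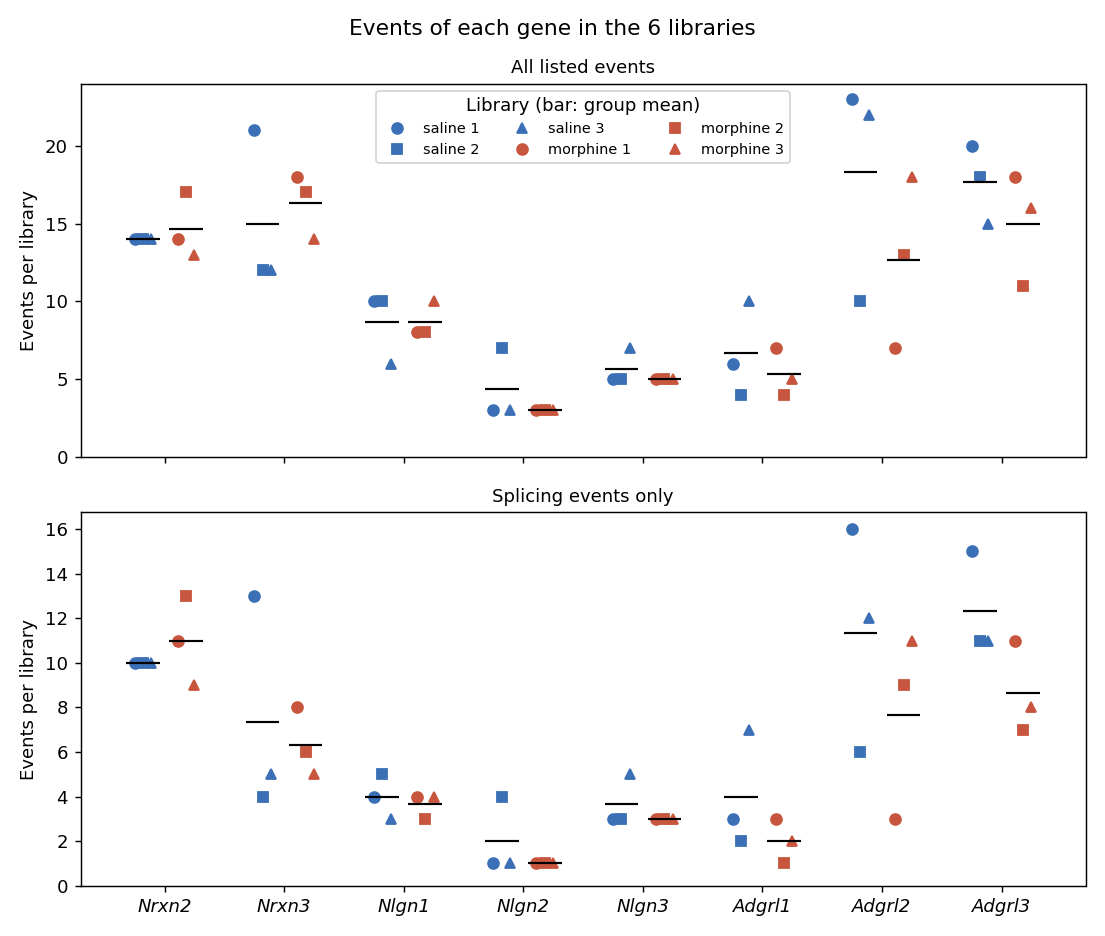
Number of listed events per library (y axis) for each of the 8 genes (x axis), for all events (top) and for splicing events without transcript starts and ends (bottom). Points are libraries, blue for saline and red for morphine, and black bars are group means (n = 3). In each gene the points of both groups overlap or touch, with Adgrl2 ranging from 7 to 23 events.

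A selection of the alternative bases of the latrophilins that recurred in the lists is shown in the same way. Other recurring exons are given by position further below. The first pair is an insert of 15 nt between the lectin-like and the olfactomedin-like parts of the receptor, in Adgrl1 (chr8:83926262-83926276, plus strand) and Adgrl3 (chr5:81509724-81509738, plus strand), which share 13 of 15 bases (86.7%).
Adgrl1 15 nt: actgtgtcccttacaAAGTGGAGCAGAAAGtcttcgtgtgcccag
Adgrl3 15 nt: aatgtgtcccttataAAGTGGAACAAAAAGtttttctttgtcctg
The second pair is a 129-nt exon near the 3′ end of the coding region, in Adgrl2 (chr3:148821280-148821408, minus strand) and Adgrl3 (chr5:81787436-81787564, plus strand), with 77 of 129 bases shared (59.7%).
Adgrl2 129 nt: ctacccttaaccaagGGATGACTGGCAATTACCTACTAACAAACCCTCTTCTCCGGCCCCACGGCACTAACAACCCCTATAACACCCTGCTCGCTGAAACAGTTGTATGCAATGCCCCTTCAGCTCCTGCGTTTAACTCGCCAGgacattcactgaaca
Adgrl3 129 nt: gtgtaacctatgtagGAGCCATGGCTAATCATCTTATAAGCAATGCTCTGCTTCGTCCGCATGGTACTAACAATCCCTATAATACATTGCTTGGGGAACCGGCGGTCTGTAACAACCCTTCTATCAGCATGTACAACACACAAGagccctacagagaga
The last pair shows alternative donors, with capitals for the bases between the near and the far donor and, before them, the end of the part that both forms share. The Adgrl2 insert of 33 nt (exon chr3:148822955-148823051, minus strand) keeps the reading frame, whereas the Adgrl3 insert of 34 nt (exon chr5:81792361-81792412, plus strand) does not.
Adgrl2 33 nt: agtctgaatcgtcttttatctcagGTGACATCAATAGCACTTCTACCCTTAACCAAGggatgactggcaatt
Adgrl3 34 nt: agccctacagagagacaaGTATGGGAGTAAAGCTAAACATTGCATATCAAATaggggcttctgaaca

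Adgrl1 (ENSMUSG00000013033, chr8:83900105-83941954, plus strand) had 6, 4 and 10 events in saline 1, 2 and 3 and 7, 4 and 5 in morphine 1, 2 and 3. The groups overlapped (exact p = 0.7). The 15-nt insert was listed as skipped in all libraries except morphine 2, the library of the highest relative depth. Adgrl1 held the only retained intron of the 8 genes that was listed in all 6 libraries, an annotated intron of 135 nt between chr8:83937325 and chr8:83937461. A start at chr8:83900924 was also in all 6.

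Adgrl2 (ENSMUSG00000028184, chr3:148815583-148990555, minus strand) had the widest range among libraries, with 23, 10 and 22 events in saline 1, 2 and 3 and 7, 13 and 18 in morphine 1, 2 and 3. The means were 18.3 ± 7.23 and 12.7 ± 5.51 (SD, n = 3), a difference within the spread of libraries (exact p = 0.3). Of its 40 distinct events 23 were in 1 library. Skipping of the 129-nt exon, of a 45-nt exon (chr3:148827541-148827585) and of an exon of 863 nt (chr3:148860427-148861289) was listed in all 6 libraries. The 863-nt exon is not annotated in this form, and shares its donor with a 15-nt exon listed as skipped in saline 3. The 33-nt alternative donor was listed in all libraries except morphine 1, and skipping of the 129-nt exon with differing flanks in saline 1, 2 and 3 and morphine 2. Starts at chr3:148988590, chr3:148989883 and chr3:149445102 were listed in all 6, the last of them 455 kb upstream of the annotated gene.

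Adgrl3 (ENSMUSG00000037605, chr5:81020138-81825133, plus strand) had recurring inserts of 15 nt to 204 nt in its coding region. Its numbers of events were 20, 18 and 15 in saline 1, 2 and 3 and 18, 11 and 16 in morphine 1, 2 and 3, which overlapped (exact p = 0.5). Skipping of the 15-nt insert, of the 129-nt exon, and of the 129-nt exon together with the following 52-nt exon were each listed in saline 1, 2 and 3 and in morphine 1, and the last 2 of these events overlap. Joint skipping in Nrxn2 and the 129-nt exon of Adgrl2 with differing flanks were listed in saline 1, 2 and 3 and in morphine 2. Thus 5 of the 185 events (2.7%) were listed in every library of 1 group and a single library of the other. All 5 went in the saline direction, set against 1.81% of all events in either direction. All 5 were splicing events, 5% of the 100 in these genes. Over all genes the share of splicing events was 1.79%, with 442 in the saline and 575 in the morphine direction. The pattern was noticed in these lists and not tested. Relative depth was 1.2, 1.59 and 1.29 in morphine 1, 2 and 3 and 1, 1.07 and 1.37 in saline 1, 2 and 3. In every library, exons of 204 nt (chr5:81329757-81329960), 27 nt (chr5:81757986-81758012) and 52 nt were skipped. The form of 18 nt ending at the near donor was listed in all libraries except morphine 2, both as skipped and as an alternative end. An exon of 39 nt (chr5:81663386-81663424) and a non-coding exon of 31 nt (chr5:81067691-81067721) were skipped in all libraries except saline 1.

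The single event of the 8 genes that was listed in every library of 1 group but never in the other was a transcript start of Adgrl3. In morphine 1, 2 and 3, an assembled transcript had a first exon that began upstream of a coding exon of 801 nt (chr5:81511984-81512784) and ran through it. The first base lay 3283, 9162 and 541 bases upstream of the acceptor in morphine 1, 2 and 3, so only the donor was shared and the start itself differed by kilobases between libraries. In morphine 1 and 2 the first exon also ran across the 15-nt insert upstream, and in morphine 3 it began downstream of it. In saline 1 the same exon was listed as a skipped internal exon. This was 1 of 185 events (0.541%), set against 0.658% of all 132823 events listed in all 3 libraries of a group and none of the other in either direction, so the share in these genes was near that of all genes.

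**Figure D2:**
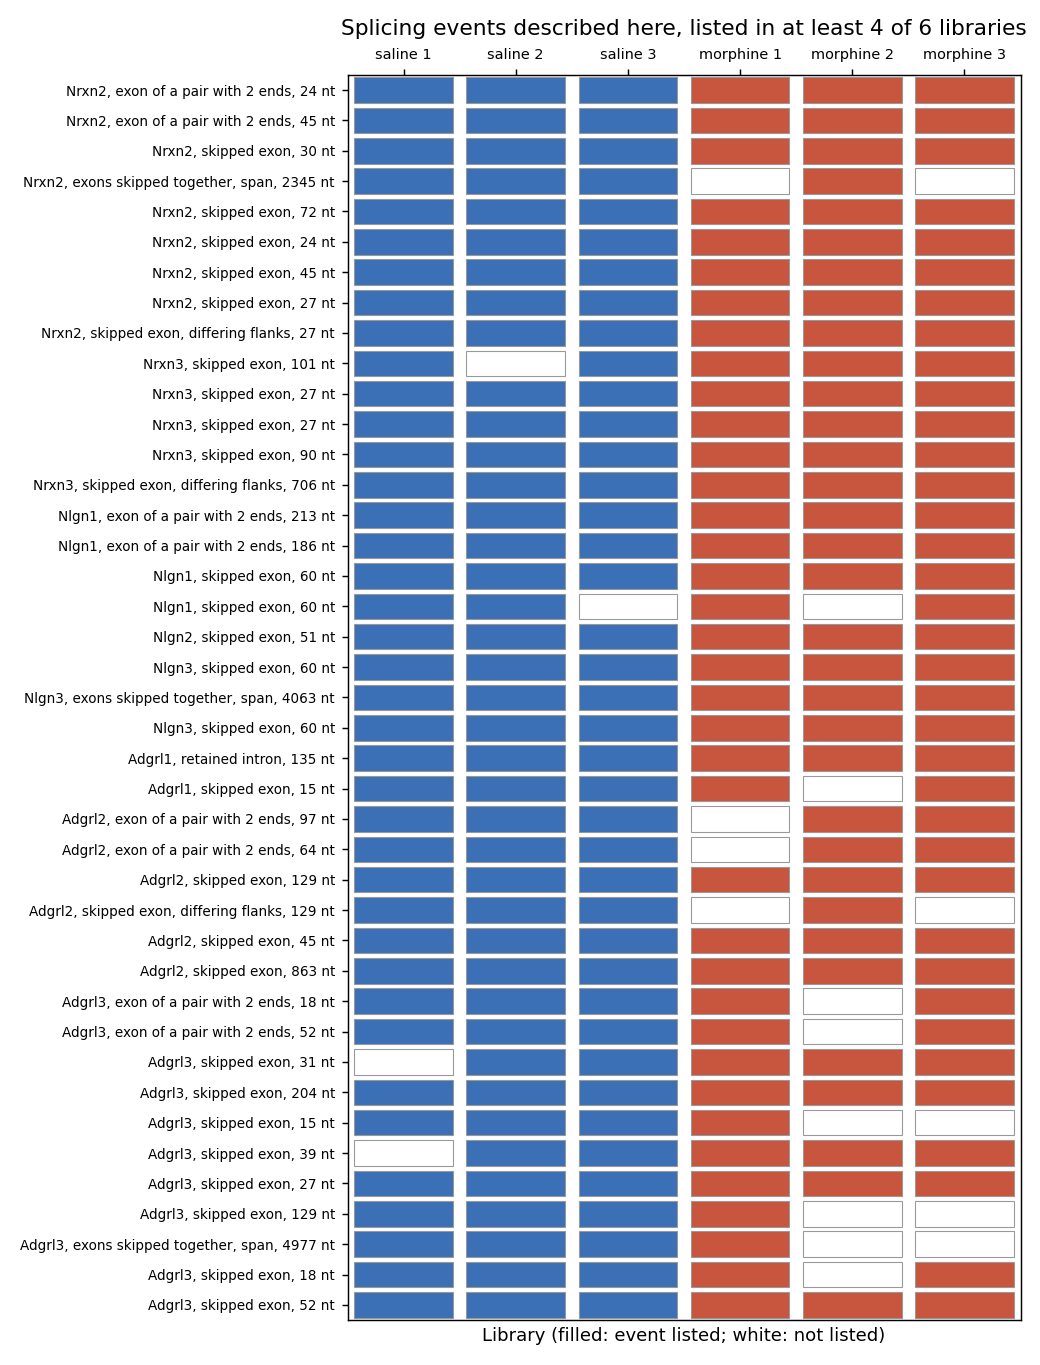
Splicing events described in the text that were listed in at least 4 of the 6 libraries (rows, with gene, class and length in nt) by library (columns); filled cells are listed events, blue for saline and red for morphine, and white cells are not listed. Most rows are filled in all 6 libraries, and the white cells of Adgrl3 for the 15-nt exon, the 129-nt exon and the joint skip lie in morphine 2 and 3.

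In none of the 8 genes did the numbers of events separate the groups. Over all 16154 genes, 2.77% had numbers of events that did not overlap between groups in either direction, and 0 of the 8 genes did. For splicing events alone, the share was 3.50% of 8003 genes, and again 0 of the 8 genes. With 3 against 3 libraries the smallest two-sided exact permutation p is 0.1, reached by 447 genes, and every p adjusted by Benjamini-Hochberg over all genes was 1. A difference in any of the 8 genes was therefore not detectable with these libraries, which does not show that usage was equal.

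Summed over the 8 genes, all events numbered 102, 80 and 89 in saline 1, 2 and 3 and 80, 78 and 84 in morphine 1, 2 and 3, which overlapped, with a difference of -10.7% in the mean and of -4.54% without saline 1. The sum of splicing events alone was looked at after seeing the data. Saline 1, 2 and 3 had 65, 45 and 54 splicing events and morphine 1, 2 and 3 had 44, 43 and 43, which differed by -20.7% in the mean and did not overlap. All genes together went the other way in the mean, with 19623, 16571 and 17267 in saline and 22062, 19954 and 18007 in morphine (12.3%), which overlapped. By class, all genes differed by 23.9% in retained introns, 9.22% in alternative exon ends and 2.83% in skipped exons. The 8 genes differed by 11.1%, -40% and -15.5%. Retained introns were 26298 of 56892 distinct splicing events over all genes but 13 of 100 in the 8 genes, so the 2 sums hold unlike mixes of classes. These sums are descriptions with no test, since the genes were chosen with results known. Without saline 1, the library of the lowest relative depth, the splicing sum differed less, by -12.5%. The groups then still did not overlap, though narrowly, with 45 in saline 2 and 44 in morphine 1. Alternative exon ends and skipped exons both entered the difference. Alternative exon ends numbered 21, 10 and 14 in saline and 8, 9 and 10 in morphine (means 15 and 9). Of the 34 distinct alternative exon ends, 24 were listed in 1 library only. Skipped exons numbered 38, 34 and 38 in saline and 34, 28 and 31 in morphine (means 36.7 and 31). Transcript starts were close to constant, between 24 and 25 in every library. The part of depth in this sum was not tested.

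The skipped exons of these genes recurred between libraries, and most had lengths that are a multiple of 3. Of 37 single skipped exons with exact flanks, 19 (51.4%) were listed in all 6 libraries, set against 24.2% of 8834 over all genes. In 31 of the 37 (83.8%) the length was a multiple of 3, set against 51.2% over all genes. Among those in at least 4 libraries the shares were 85.2% and 63.7%. Such a length keeps the reading frame where the exon is coding. The count was of length alone and includes non-coding exons, such as 1 of 600 nt in Adgrl2. Microexons of at most 27 nt made up 10 of the 37 (27%) and 5.26% over all genes. These shares were not tested, since exons of a gene share transcripts and the genes were chosen for their known biology. Transcript ends showed the opposite pattern, with 1 of 37 (2.7%) in all 6 libraries against 30.9% over all genes, and 28 of the 37 were in 1 library. Transcript starts did not differ in this way, at 29.2% in the 8 genes and 29% over all genes. Retained introns were in all 6 libraries in 1 of 13 cases (7.69%), against 1.7% over all genes. That share rests on a single Adgrl1 intron. In 1 library only were 11 of the 13 (84.6%), against 67.5% over all genes.

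**Figure D3:**
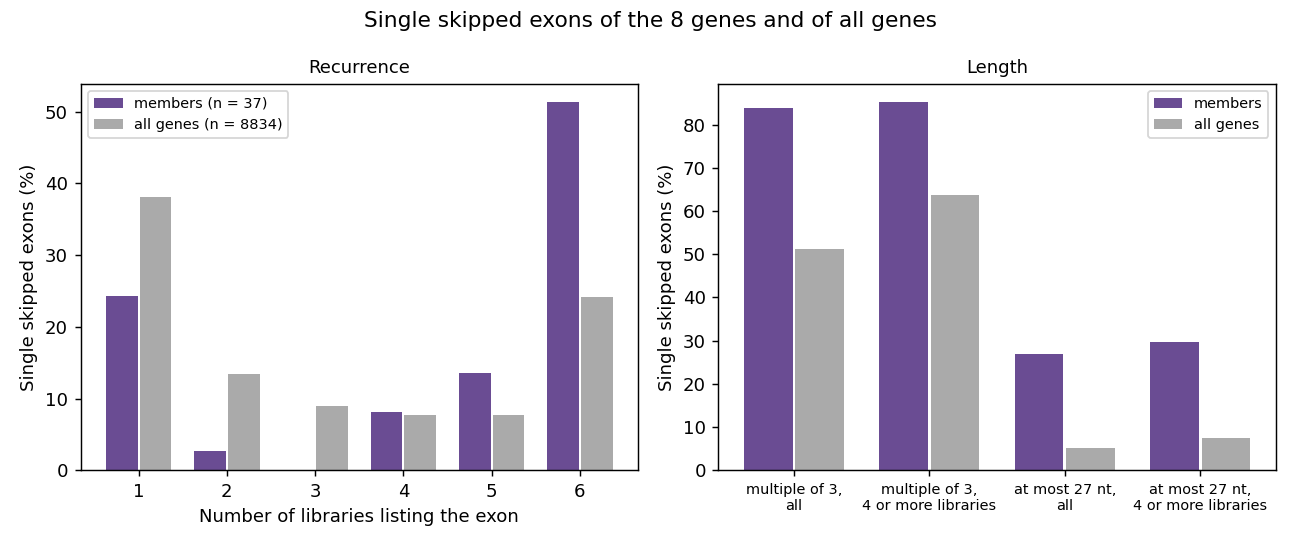
Percent of single skipped exons (y axis) by the number of libraries that list them (left) and by length (right), for the 8 genes (purple, 37 exons) and all genes (grey, 8834 exons); bars have no error, as each share is a full count. The purple bar at 6 libraries reaches 51.4% and the grey bar 24.2%, and the purple bars for multiples of 3 and for microexons of at most 27 nt exceed the grey ones.

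**Figure D4:**
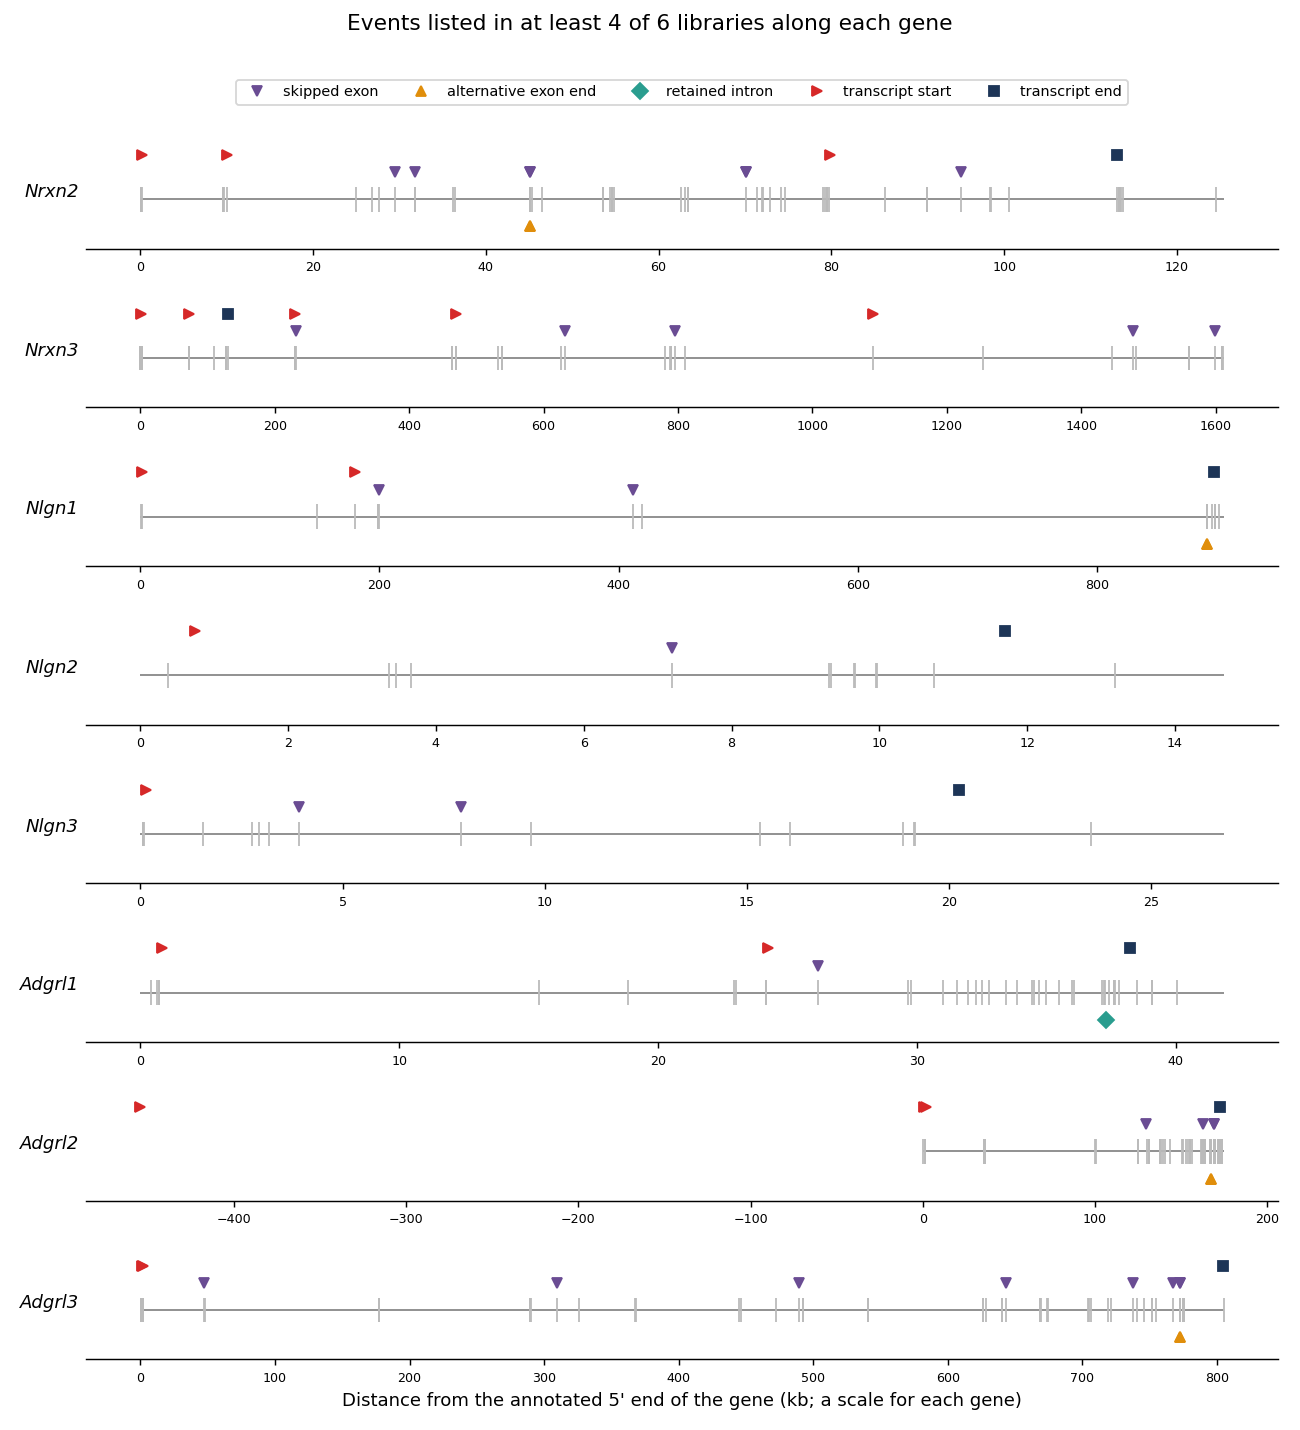
Events listed in at least 4 libraries along each gene (rows), against the distance from the annotated 5′ end in kb, with a scale of its own for each gene; grey ticks are annotated exons, and symbols mark skipped exons, alternative exon ends, retained introns, transcript starts and ends. Skipped exons are spread along Nrxn3 and Adgrl3, and an Adgrl2 start stands 455 kb before the annotated gene.

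Entries on the opposite strand made up 12 of the 185 events (6.49%), against 3.39% over all genes. They were 6 in Nrxn3, 3 in Nlgn1, 2 in Nlgn3 and 1 in Adgrl1. All were transcript starts or ends, so no inserted exon described above rests on them.

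The partner genes of these families were listed in nearly all libraries. Of 52 partner genes, 50 were listed in all 6 libraries, with 479 distinct events and 193 splicing events, 42 of which were in all 6. No partner had a group-specific event and none had numbers of events that did not overlap between groups, beside 0.658% of all events and 2.77% of all genes, shares at which few or none of so short a list would be called. Among latrophilin ligands, the teneurins Tenm2 and Tenm4 had 19 splicing events each, of which 2 and 5 were in all 6 libraries. Of the other presynaptic hubs, the receptor phosphatases Ptprd and Ptprf had 18 and 8 splicing events, with 7 and 5 in all 6. Among scaffolds, Cask, a neurexin-binding kinase, and Magi2 had 9 splicing events each, with 7 of those of Cask in all 6 libraries.

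In the remaining roles, none of the genes with the most splicing events had a splicing event in all 6 libraries. The only such event in these roles was 1 in Clstn1, a postsynaptic neurexin ligand. The neuroligin inhibitors Mdga2 and Mdga1 had 11 and 5 splicing events and the postsynaptic neurexin ligands Lrrtm4 and Dag1 had 9 and 4, none of them in all 6 libraries. Of the secreted ligands, Car11 had 10 and the neurexophilin Nxph1 had 2, again with 0 in all 6. The splicing regulators of neurexins were represented by Khdrbs2, with 2 splicing events, while Khdrbs1 and Khdrbs3 had 0. Khdrbs2 had 5, 5 and 5 events in saline 1, 2 and 3 and 2, 2 and 5 in morphine 1, 2 and 3, which overlapped.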

How the data were processed

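Per the study's methods, directional libraries were mapped by the authors with HISAT2 and assembled with StringTie. Genome build and annotation release were not given in the sources used here; 99.2% of gene identifiers were found in GENCODE M21 (GRCm38), and 81.9% of single skipped exons matched its exons. The event lists have the layout of ASprofile. Their column called FPKM held whole numbers from -25 to 0, was not FPKM, and was not used. Relative depth came from the ratio of count to FPKM, both deposited by the authors for selected lncRNAs, over values of at least 10 counts; columns of the authors' own fold changes and p-values were not used. Entries with and without an exon or intron were merged, giving 12 classes from 20 types. A start or end was named by the splice-site side of its exon. Named events were all splicing events in at least 4 libraries, group-specific events, starts and ends in all 6, and of partners the 2 per role with the most splicing events; a few items that this rule covers are not reported here. The test of the numbers of events per gene was an exact permutation test, two-sided, checked on simulated data. Members and lists were chosen with earlier results of these data known. Replicate numbers are names in accession order. Software was Python 3.11.15 with scipy 1.17.1, pandas 2.3.3, matplotlib 3.10.9 and numpy 2.4.6.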

Additional observations from a re-analysis of the deposited data

How the results depend on the processing

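Alternatives were an identity by every coordinate and the splice pattern, no inexact event types, no opposite-strand events, no transcript starts and ends, and each library left out. The single group-specific event became 0 with every coordinate in the identity and 0 without starts and ends. Over left-out libraries it numbered 1 to 4: 4 without morphine 1 (the 3 Adgrl3 events shared with saline were added), 3 without morphine 2 (joint skipping in Nrxn2 and the 129-nt exon of Adgrl2 with differing flanks) and 2 without morphine 3 (a Nrxn3 start). With 2 against 3 libraries, 1.82% to 2.19% of all events had such a pattern. The number of genes that did not overlap was 0 to 1: Nrxn3 without saline 1 (morphine higher) and Adgrl2 without saline 2 (saline higher). The share of all genes with that pattern was not computed for 2 against 3 libraries, so nothing is concluded from these 2 genes. The share of events in all libraries, 22.7%, was 25% to 30.3% with a library left out, since fewer libraries had to list an event. The splicing sum, whose alternatives were added after seeing the data, differed by -12.5% to -27.2%. Relative depth, morphine over saline, was 1.19, and 1.15 to 1.19 with other count minimums. No paired analysis was possible because the labels give no shared replicate numbers. Event lists hold no read support, so counting error could not be given.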
